A study of Brachypodium distachyon with 89 samples.

Results

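The comparison described here sets submerged (S) plants of the Brachypodium distachyon ecotype Bd21-3 against low light (LL) plants of the same ecotype at ZT24, the second dawn of the stress. All genes of the deposited CPM table were taken, in the columns of the 3 S and the 3 LL libraries of Bd21-3 at ZT24, which are 6 of the 89 libraries of the series. The table lists 24467 genes, of which 24109 passed the filter on low values and were tested. S plants stood under 30 cm of water in tanks, where light of 70 µE reached them, and LL plants stood at 70 µE in tanks without water. Normal growth (NG) plants, used here only for side values, stayed at 150 µE. All plants were 14 days old and grew in 16 h of light and 8 h of dark, and submergence began late in the light period before the first dawn (ZT0). Each library was made from aboveground tissue of a pool of 5 plants. The replicates were stated to be independent, but plants collected at 1 time shared a tank, so the error may hold part of the spread between tanks only.

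The study followed 2 Brachypodium ecotypes through a day under water, with Bd21-3 as the more tolerant and Bd21 as the sensitive ecotype. Gas moves slowly through water, so that leaves in a dark, flooded place depend on fermentation, in which pyruvate decarboxylase and alcohol dehydrogenase turn pyruvate into ethanol and return the NAD+ that glycolysis needs. In Arabidopsis, transcription factors of the group VII ethylene response factors (ERF-VII) are broken down while oxygen is present, and they switch on the fermentation genes when it is not. Dawn is also the hour at which the morning oscillator gene LHY peaks and the genes of photosynthesis begin their daily increase.

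Between 5376709 and 9448909 reads stood behind the values of an S library, and between 7889462 and 12003995 behind those of an LL library, so that 1 read was worth 0.110 to 0.186 CPM in S and 0.0782 to 0.119 CPM in LL. Replicate 2 of S and replicate 3 of LL stood apart from their groups. A chi-square of the counts divided by its degrees of freedom was 13.6 and 20.1 for S replicate 2 against its partners and 5.50 between the other two, and 23.1 and 16.5 for LL replicate 3, against 3.02 between the other two. Where leaving out either library ended a call of a gene named here or moved a count by over 1.5 times, this is said beside the result. Of the tissue markers, 4 root genes summed to 1.68 to 3.64 CPM in S and 9.46 to 24.9 CPM in LL, and 6 genes of xylem and phloem to 45.9 to 69.0 CPM in S and 421 to 523 CPM in LL. Only 2 of these 6, XCP1 and CESA7, reached a mean of 15 CPM in LL, so that sum came mostly from them. A set of 13 guard cell markers summed to 38.8 to 54.1 CPM in S and 79.8 to 90.2 CPM in LL. The part that the makeup of the tissue has in the results was not tested. In such bulk tissue, fewer cells of a type and less RNA per cell cannot be told apart.

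Under submergence, fermentation, low-oxygen signaling and part of glycolysis and phenylpropanoid synthesis stood high at the second dawn. Photosynthesis, photorespiration, a set of plastid ribosomal proteins, aquaporins and secondary wall synthases stood low. Log2FC is the difference of log2(CPM + 1), S minus LL, so that it understates the change of genes of low level. Genes were called differentially expressed (DEGs) if the Log2FC was 1.5 or more in either direction, the limma adjusted p was below 5e-06, and S or LL reached 15 CPM on average. By this rule 685 genes rose, 2.84% of the genes tested, and 1136 fell, 4.71%. In all of these DEGs the S and LL libraries did not overlap, but the genes were selected on these same libraries, so this adds no support. The median Log2FC was 2.28 for the risen and -2.38 for the fallen genes, against 0.00 over all genes tested. A Log2FC of at least 5 was reached by 47 risen genes, and a fall of at least that size by 12 genes. The risen genes held 14.3 to 16.7% of the CPM of a library in S, against 2.70 to 2.72% in LL, while the fallen genes held 2.48 to 3.03% in S, against 16.4 to 19.2% in LL. Leaving out S replicate 2 gave 648 risen and 1030 fallen genes, and leaving out LL replicate 3 gave 637 and 1156. The p-values borrow the spread of all 30 groups of the series, and a fit of these 6 libraries alone called 286 risen and 242 fallen genes and ended 92 of 173 calls of the genes chosen to be named.

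**Figure D1:**
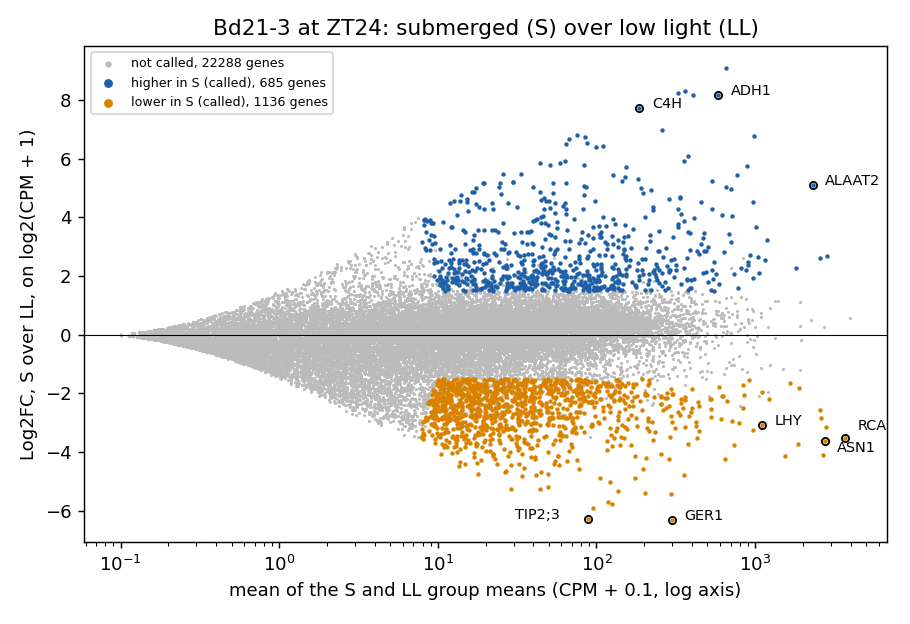
Each point is 1 of the 24109 genes tested, with its mean level in S and LL on the horizontal log axis (CPM + 0.1) and its Log2FC, S over LL, on the vertical axis; blue points are the 685 risen and orange points the 1136 fallen DEGs. ADH1 and C4H stand among the highest rises and TIP2;3 and GER1 among the deepest falls, and genes of low level have small Log2FC because 1 CPM is added before the logarithm.

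Ethanol and alanine fermentation genes gave some of the largest rises. Of 10 genes tested, 5 rose and 0 fell, and the median Log2FC of the list was 2.19. ADH1 (Bradi4g22620), the alcohol dehydrogenase that makes ethanol, had 1215, 839.7 and 1447 CPM in the S libraries, against 2.98, 5.06 and 1.56 CPM in the LL libraries. The groups lay far apart, with S replicate 2 the lowest of its group, and the Log2FC was 8.17 (SE 0.71, limma adjusted p = 8.8e-16). A further ADH1 match (Bradi4g22630) had 1982, 1358 and 1928 CPM in the S libraries, against 31.6, 34.1 and 27.4 CPM in the LL libraries. This gene was also expressed without water, and its Log2FC was 5.76 (SE 0.34, limma adjusted p = 6.0e-23). Pyruvate decarboxylase (Bradi1g65440), the enzyme before alcohol dehydrogenase, had 2187, 1164 and 2503 CPM in the S libraries, against 15.6, 17.7 and 14.5 CPM in the LL libraries. Again S replicate 2 was lowest yet lay far above all LL libraries, with a Log2FC of 6.78 (SE 0.57, limma adjusted p = 2.1e-16). ALAAT2 (Bradi3g23160), the alanine aminotransferase by which pyruvate is kept as alanine, had 4881, 4194 and 4348 CPM in the S libraries, against 123, 122 and 143 CPM in the LL libraries, and its Log2FC of 5.10 came with S values close to each other. A lactate dehydrogenase match (Bradi3g15560), for the route to lactate, had 85.4, 38.9 and 82.6 CPM in the S libraries, against 8.33, 5.63 and 2.27 CPM in the LL libraries. Its Log2FC of 3.49 passed the limits, but the call was lost without LL replicate 3 (3.07), without S replicate 1 (3.30) or without S replicate 3 (3.32). The most expressed uncalled members were another ALAAT2 match (Bradi1g20995) with a Log2FC of 0.64 and the aldehyde dehydrogenase ALDH2B (Bradi1g43770) with -0.81.

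Genes that sense oxygen or answer to its lack rose with them. In a list of oxygen sensing genes and ERF-VII factors, 7 of 16 rose, 0 fell, and all 16 had a Log2FC above 0, with a median of 1.32. The ERF-VII factor HRE2 (Bradi2g11890) had 122, 67.7 and 185 CPM in the S libraries, against 3.10, 3.19 and 0.938 CPM in the LL libraries. No S value came near the LL values, and the Log2FC was 5.18 (SE 0.64, limma adjusted p = 2.4e-10). HRE1 (Bradi1g72457) had 127, 87.2 and 141 CPM in the S libraries, against 5.83, 6.75 and 2.27 CPM in the LL libraries, a Log2FC of 4.40. A second HRE1 match (Bradi1g72449), named after its values were seen, was not called. It averaged 65.9 CPM in S and 72.1 CPM in LL, with a Log2FC of 0.05. RAP2.3 (Bradi2g27920), a further member of the group, was close to 0 without water, with 53.0, 20.4 and 73.4 CPM in the S libraries, against 0.238, 0.375 and 0.0782 CPM in the LL libraries. Its S replicate 2 was the lowest of the group and still many times above LL, and the Log2FC was 5.17 (SE 0.51, limma adjusted p = 1.2e-13). RAP2.12 (Bradi1g46690), which in Arabidopsis is held ready as protein while oxygen is present, had a Log2FC of 0.82 and was not called. The match of a plant cysteine oxidase (Bradi2g14450), an enzyme that marks ERF-VII proteins for breakdown when oxygen is present, had 195, 169 and 199 CPM in the S libraries, against 7.26, 5.44 and 8.37 CPM in the LL libraries. The S values were even among themselves, and the Log2FC was 4.57 (SE 0.29, limma adjusted p = 4.8e-22). PRT6 (Bradi2g03180), the ligase that acts after it, had 322, 379 and 257 CPM in the S libraries, against 268, 281 and 328 CPM in the LL libraries, and these values overlapped.

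Of 58 matches of the Arabidopsis core hypoxia genes, 25 rose and 4 fell, with a median Log2FC of 1.21, and 22 rose without both S replicate 2 and LL replicate 3. A B12D protein (Bradi1g22010) had 710.5, 478 and 769.9 CPM in the S libraries, against 1.31, 1.31 and 0.782 CPM in the LL libraries. Near 0 in LL and far from it in S, this gene had a Log2FC of 8.24 (SE 0.59, limma adjusted p = 3.3e-19). A match of wound-responsive proteins (Bradi5g23150) had a Log2FC of 6.42, and a DNA-binding factor (Bradi2g12030) had 4.88. The 4 fallen matches, named after their values were seen, were a SUS4 match (Bradi1g60320, -1.79), 2 of the 6 PP2-A13 matches (Bradi1g77430, -2.13, and Bradi5g18820, -1.93) and an RBOHD match (Bradi2g12790, -1.99). Phytoglobins bind oxygen tightly and remove nitric oxide in tissue short of oxygen. HB1 (Bradi1g69320) had 918, 536 and 779 CPM in the S libraries, against 11.9, 10.5 and 7.35 CPM in the LL libraries. All S libraries lay far above the highest LL library, and the Log2FC was 6.08 (SE 0.53, limma adjusted p = 1.0e-15). GLB3 (Bradi1g37100), a truncated globin, had a smaller Log2FC of 1.67, and its call was lost without LL replicate 2 (1.62) or S replicate 1 (1.58).

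**Figure D2:**
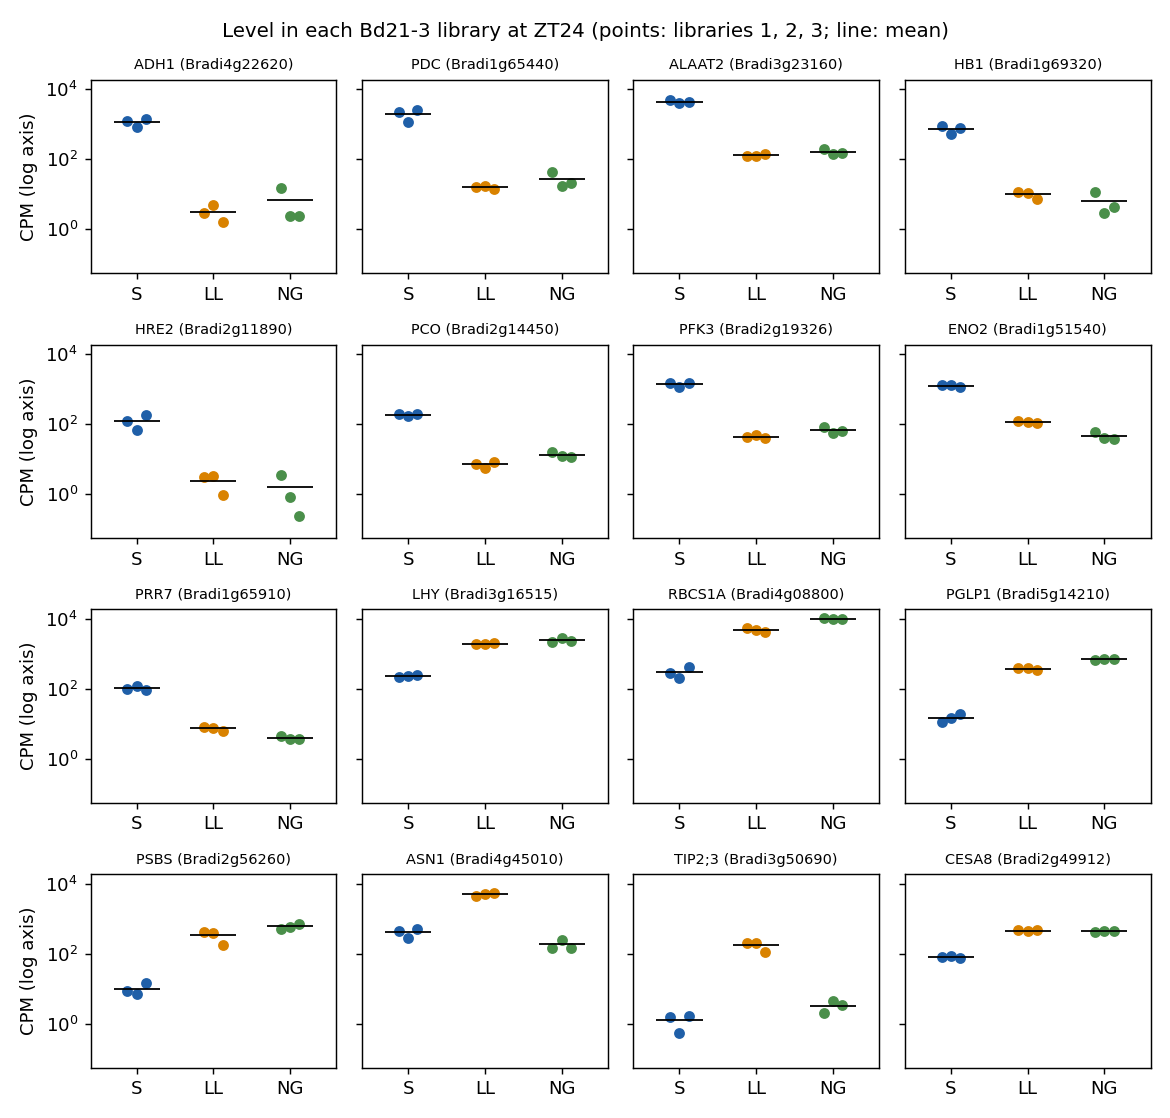
CPM (log axis) of 16 genes in each Bd21-3 library at ZT24, with S on the left, LL in the middle and NG on the right of each panel; points are replicates 1, 2 and 3 and lines are means. The first 9 panels show genes risen in S, in which every S library lay above every LL and NG library, and the last 7 show genes fallen in S, among which ASN1 and TIP2;3 stood far higher in LL than in NG.

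Glycolysis rose at some of its steps. Of 42 genes tested, 16 rose, 3 fell, and the median Log2FC was 0.75. Over NG, 9 rose and 4 fell, with a median of 0.43. The list summed to a median of 18979 CPM in S, 4160 CPM in LL and 8138 CPM in NG, so LL stood below NG. PFK3 (Bradi2g19326), a phosphofructokinase at the step that commits sugar to the pathway, had 1494, 1139 and 1493 CPM in the S libraries, against 42.1, 47.8 and 39.6 CPM in the LL libraries. Levels were alike within each group, and the Log2FC was 4.95 (SE 0.30, limma adjusted p = 1.4e-22). Another phosphofructokinase match (Bradi3g22340) had a Log2FC of 3.48. Among the enzymes below it, PGK (Bradi3g05220), a phosphoglycerate kinase, had 1463, 1011 and 1337 CPM in the S libraries, against 131, 135 and 148 CPM in the LL libraries, and the Log2FC was 3.18. GAPC1 (Bradi3g14120), the cytosolic glyceraldehyde phosphate dehydrogenase, had 5303, 3090.2 and 4923 CPM in the S libraries, against 695, 684 and 741 CPM in the LL libraries. It was already high without water, S replicate 2 was the lowest of its group, and the Log2FC was 2.61 (SE 0.19, limma adjusted p = 6.9e-19). The enolase ENO2 (Bradi1g51540) had 1335, 1287 and 1131 CPM in the S libraries, against 127, 114 and 105 CPM in the LL libraries, a Log2FC of 3.42 (SE 0.35, limma adjusted p = 6.3e-13) with little spread in either group. The 3 fallen members were an aldolase match (Bradi1g36260, -3.10), PFK5 (Bradi3g37020, -1.77) and ALDH11A3 (Bradi3g36930, -2.58), the last 2 named after their values were seen, and PFK5 is a plastid enzyme in Arabidopsis. Of the 21 genes of the TCA cycle and pyruvate dehydrogenase, 1 rose and 1 fell. Over all genes tested, 2.84% rose and 4.71% fell, so that these counts stood near the background. The list had a median Log2FC of 0.53, with 18 genes above 0. The risen gene was the aconitase ACO3 (Bradi1g75960), with a Log2FC of 1.75. The fallen gene was the kinase PDK (Bradi1g20100), which switches pyruvate dehydrogenase off, with -1.87.

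Sucrose is cleaved by sucrose synthase, which saves ATP, or by invertases. Of 27 genes of sucrose synthesis and cleavage, 6 rose and 4 fell, and 4 rose without LL replicate 3. The sucrose synthase SUS4 (Bradi1g46670) had 5372, 4343 and 5115 CPM in the S libraries, against 698, 723 and 893 CPM in the LL libraries. It was abundant in LL as well, and the Log2FC was 2.68 (SE 0.24, limma adjusted p = 2.7e-15). A second SUS4 match (Bradi1g20890), nearly silent without water, had 226, 141 and 384 CPM in the S libraries, against 4.05, 4.03 and 4.93 CPM in the LL libraries. S replicate 3 was highest and replicate 2 lowest, and the Log2FC was 5.44 (SE 0.43, limma adjusted p = 1.1e-17). The vacuolar invertase VAC-INV (Bradi3g00910) went the other way, with 1.15, 1.54 and 3.54 CPM in the S libraries, against 99.4, 83.7 and 60.4 CPM in the LL libraries. Its 3 LL values differed among themselves but all lay far above S, and the Log2FC was -4.79 (SE 0.35, limma adjusted p = 3.3e-19). Of 19 genes of trehalose phosphate metabolism, a phosphatase match (Bradi4g29030) rose, with 39.9, 20.2 and 40.8 CPM in S, against 2.50, 2.16 and 1.02 CPM in LL and a Log2FC of 3.56. The trehalase TRE1 (Bradi3g31410) had 1.80, a call lost without LL replicate 3 (1.73) or S replicate 1 (1.78).

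Phenylpropanoid synthesis leads from phenylalanine to lignin, and its called genes went in both directions. Of 55 genes, 6 rose, 4 fell and 45 were not called. C4H (Bradi3g43160), which makes the second step of the pathway, had 428, 217 and 468 CPM in the S libraries, against 0.357, 1.13 and 0.626 CPM in the LL libraries. LL held only a few reads of it, and the Log2FC was 7.72 (SE 0.60, limma adjusted p = 6.1e-18). CCR1 (Bradi3g54950), the entry to the lignin branch, had 114, 56.4 and 216 CPM in the S libraries, against 0.119, 0.469 and 0.156 CPM in the LL libraries. The S values spanned a wide range, with replicate 2 lowest and replicate 3 highest, and the Log2FC was 6.51 (SE 0.64, limma adjusted p = 1.1e-13). CYP98A3 (Bradi2g21300), a hydroxylase between them, had 1172, 847 and 1116 CPM in the S libraries, against 27.9, 27.0 and 24.1 CPM in the LL libraries, a Log2FC of 5.25. PAL1, the first enzyme, had 2 abundant matches, Bradi3g49250 with 0.75 and Bradi3g49260 with 1.14, neither called. The laccase LAC17 (Bradi2g23350), which joins lignin units in the wall, had 0.257, 0.331 and 1.12 CPM in the S libraries, against 66.0, 60.9 and 45.0 CPM in the LL libraries. It was almost lost under water, with a Log2FC of -5.24 (SE 0.27, limma adjusted p = 8.4e-26), and another LAC17 match (Bradi2g54690) had -4.73. In S replicate 2 the genes of this list lay 0.68 below the mean of the other replicates on the log2 scale (median of 21 genes of at least 15 CPM).

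The largest rise of all was that of Bradi2g11610, described as an adenine nucleotide alpha hydrolase-like protein, with 1426, 929 and 1596 CPM in the S libraries, against 1.31, 1.5 and 1.33 CPM in the LL libraries. It was next to absent without water, and the Log2FC was 9.08 (SE 0.74, limma adjusted p = 8.0e-17). Bradi1g12360, of a family that includes pathogenesis-related protein 1, had a Log2FC of 8.32. FAB2 (Bradi2g56850), a desaturase match of plastid fatty acids, had 179, 81.5 and 243 CPM in the S libraries, against 0.476, 0.469 and 0.391 CPM in the LL libraries. The LL values were near the worth of a few reads, and the Log2FC was 6.73 (SE 0.69, limma adjusted p = 4.6e-13). An RBOHC match (Bradi4g05540), an NADPH oxidase that makes superoxide at the plasma membrane, had 191, 93.7 and 238 CPM in the S libraries, against 0.714, 0.656 and 0.938 CPM in the LL libraries, a Log2FC of 6.53. RD22 (Bradi4g44496), a gene with a BURP domain, had 1495, 1255 and 1794 CPM in the S libraries, against 34.2, 38.2 and 27.6 CPM in the LL libraries. It ranked with the genes of the largest gain in CPM, and its Log2FC was 5.46 (SE 0.52, limma adjusted p = 3.9e-14). In the same group were LKR/SDH (Bradi3g60160), which begins the breakdown of lysine, with a Log2FC of 2.55, and a leucine-rich repeat kinase (Bradi5g21870) with 4.52. The lipid transfer protein LTP1 (Bradi4g44410) had 2159, 1252 and 2194 CPM in the S libraries, against 172, 167 and 94.2 CPM in the LL libraries. In the NG libraries it had 428, 361 and 567 CPM. The Log2FC over LL was 3.69, and over NG the gene was not called (2.02).

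In the clock, LHY and RVE genes of the morning fell, and PRR genes of the day, GI and FKF1 rose. Of 26 clock genes, 7 rose, 4 fell, and the median Log2FC was 0.01. LHY (Bradi3g16515), the Myb factor of the morning loop, had 224, 234 and 255 CPM in the S libraries, against 1946, 2000.5 and 2015 CPM in the LL libraries. The 3 values of each group were nearly equal, and the Log2FC was -3.06 (SE 0.19, limma adjusted p = 4.8e-22). The related RVE1 (Bradi3g51960), which links the clock to auxin in Arabidopsis, had 7.05, 2.76 and 12.9 CPM in the S libraries, against 107, 103 and 87.3 CPM in the LL libraries, a Log2FC of -3.73. RVE2 (Bradi1g29680) had 39.0, 33.9 and 39.9 CPM in the S libraries, against 239, 274 and 328 CPM in the LL libraries, also with no overlap, and a Log2FC of -2.86. A second RVE1 match (Bradi5g19380) had a Log2FC of -1.04 and was not called.

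Among the pseudo-response regulators, which repress LHY in turn through the day, PRR7 (Bradi1g65910) had 102, 119.7 and 91.9 CPM in the S libraries, against 8.22, 7.6 and 6.49 CPM in the LL libraries. This made it the second largest rise of the list, with a Log2FC of 3.64 (SE 0.19, limma adjusted p = 8.4e-26). Bradi1g16490 is named PRR7 in the table too, but the study notes that it is better classed as the PRR3 ortholog. It had 10.1, 6.72 and 8.95 CPM in the S libraries, against 7.02, 9.19 and 8.05 CPM in the LL libraries. These values overlapped, and the Log2FC was 0.07. PRR5 (Bradi4g24967) had 452, 438 and 392 CPM in the S libraries, against 57.4, 59.2 and 58.2 CPM in the LL libraries, a Log2FC of 2.85 (SE 0.15, limma adjusted p = 2.8e-25). A second PRR5 match (Bradi4g36077), with means of 11.8 CPM in S and 2.02 CPM in LL, had a Log2FC of 2.11. It was under the limit of 15 CPM and not called. GI (Bradi2g05226), which with FKF1 times flowering, had 173, 188 and 144 CPM in the S libraries, against 26.4, 23.0 and 15.2 CPM in the LL libraries. LL replicate 3 was the lowest LL value, and the Log2FC was 2.94 (SE 0.23, limma adjusted p = 4.4e-18). FKF1 (Bradi4g16630), a blue light receptor of the evening, had 172, 149.6 and 148 CPM in the S libraries, against 7.98, 8.72 and 5.08 CPM in the LL libraries. It had the largest Log2FC of the list, 4.28 (SE 0.25, limma adjusted p = 1.4e-23). The closely related ZTL matches gave 0.00 (Bradi1g33610) and 0.01 (Bradi3g04040).

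TOC1 (Bradi3g48880), the core evening regulator, had 93.9, 103 and 82.0 CPM in the S libraries, against 39.4, 40.4 and 41.5 CPM in the LL libraries. No value overlapped, but the Log2FC of 1.18 (SE 0.12, limma adjusted p = 1.1e-12) was under the limit of 1.5. The evening complex genes LUX (Bradi2g54791, -0.83, and Bradi2g62067, -0.70) and ELF3 (Bradi2g14290, -0.05) were not called. Neither were the ELF4-L4 matches Bradi1g60090 (1.28), Bradi4g29580 (1.12) and Bradi4g13227 (-0.93). Both COR27 matches, cold-regulated genes that act on the clock in Arabidopsis, were called in opposite directions. Bradi1g72390 had 54.6, 57.4 and 55.7 CPM in the S libraries, against 7.62, 9.85 and 6.10 CPM in the LL libraries, a Log2FC of 2.71 (SE 0.29, limma adjusted p = 1.6e-12). Bradi1g60490 had 6.03, 5.51 and 5.59 CPM in the S libraries, against 24.4, 24.2 and 27.2 CPM in the LL libraries, a Log2FC of -1.97, which missed the limit (-1.5) when 5 CPM in place of 1 were added. A match of the LNK genes (Bradi2g13610), which activate day genes, had a Log2FC of 2.14, and a second (Bradi1g60846) had 1.57, a call lost without S replicate 2 (1.49). Of the light receptors, the cryptochrome CRY2 (Bradi3g49204) rose, with 781, 890.1 and 702 CPM in S, against 231, 232 and 212 CPM in LL and a Log2FC of 1.80, and CRY1 (Bradi3g46590) fell, with 59.8, 45.3 and 62.8 CPM in S, against 199, 179.7 and 179.6 CPM in LL and -1.73, while 3 of these 27 genes fell without LL replicate 3.

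**Figure D3:**
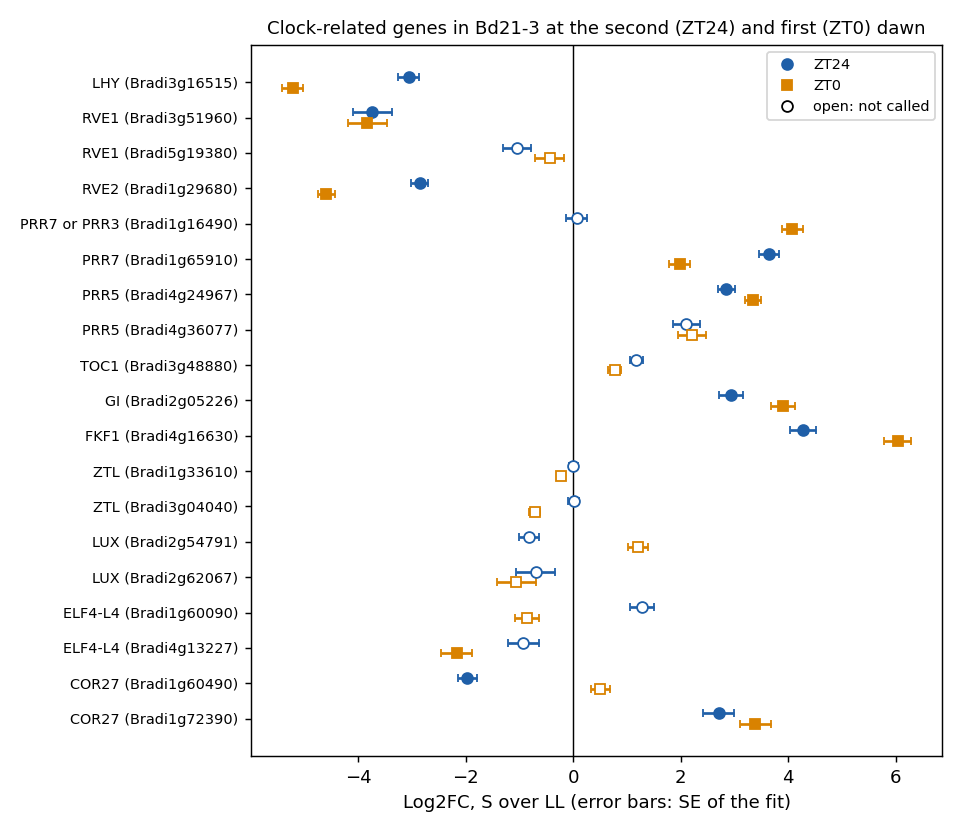
Log2FC, S over LL, of 19 clock-related genes (rows) in Bd21-3 at ZT24 (circles) and ZT0 (squares), with error bars of 1 SE of the fit and open symbols for genes not called. LHY and both RVE genes below it that were called lay left of 0 at both dawns, PRR5, GI and FKF1 lay right of 0, and Bradi1g16490, named PRR7 or PRR3, stood at 0.07 at ZT24, against 4.08 at ZT0.

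Many genes of photosynthesis fell. In the photosystem cores and electron transport, 17 of 35 genes fell, 0 rose, and 0 had a Log2FC above 0, with a median of -2.19. PSB28 (Bradi1g02550), which helps build photosystem II, had 1.92, 3.09 and 4.10 CPM in the S libraries, against 97.4, 82.2 and 42.1 CPM in the LL libraries, a Log2FC of -4.17 (SE 0.35, limma adjusted p = 1.4e-16). PGRL1A (Bradi1g00940), of cyclic electron flow around photosystem I, had 15.4, 14.4 and 18.8 CPM in the S libraries, against 225, 241 and 234 CPM in the LL libraries. Its values were even in both groups, and the Log2FC was -3.78 (SE 0.12, limma adjusted p = 1.3e-36). The plastocyanin PETE1 (Bradi1g52460), which carries electrons between the photosystems, had 57.7, 39.0 and 77.0 CPM in the S libraries, against 763, 678 and 261 CPM in the LL libraries, a Log2FC of -3.18. In the light-harvesting antenna, 8 of 19 fell and 0 rose, with a median of -1.64. PSBS (Bradi2g56260), which lets photosystem II release excess light as heat, had 8.72, 7.27 and 14.4 CPM in the S libraries, against 435, 402 and 179 CPM in the LL libraries. LL replicate 3 held less than its partners and still lay far above S, with a Log2FC of -4.88 (SE 0.42, limma adjusted p = 4.2e-16). LHCA3 (Bradi3g07190), an antenna protein of photosystem I, had a Log2FC of -2.85 and LHCA6 (Bradi4g31257) -3.49. Abundant antenna matches of photosystem II were not called, with -1.40 for LHCB2 (Bradi1g15290) and -1.70 for LHB1B2 (Bradi4g37210).

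LL replicate 3 lay below the other LL libraries in these genes, by a median of 1.04 on the log2 scale in 15 antenna genes and 0.82 in 34 genes of the cores, and S replicate 2 lay 0.52 and 0.62 below the other S libraries. The number of fallen antenna genes was 5 without S replicate 2, 8 without LL replicate 3 and 6 without both, and 5 without LL replicate 1 or LL replicate 2. For the cores it was 14, 20 and 14. The part of these libraries in the size of the falls was not tested otherwise.

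The Calvin cycle, which fixes CO2, had 10 fallen and 1 risen of 22 genes, with a median Log2FC of -1.94. The small Rubisco subunit had 4 RBCS1A matches, which could share reads, and 3 of them fell. Bradi4g08800 had 282, 213 and 414 CPM in the S libraries, against 5729.6, 5014 and 4431 CPM in the LL libraries, a Log2FC of -4.10 (SE 0.26, limma adjusted p = 4.7e-22). Bradi4g08500 had -3.15 and Bradi3g26391 had -1.82, while Bradi5g04080, named after its values were seen, had -1.43 and was not called. Rubisco activase (RCA, Bradi4g09125), which keeps Rubisco active, had 562, 532 and 703 CPM in the S libraries, against 6667, 6792 and 6861 CPM in the LL libraries. LL replicate 3 was no lower than its partners here, and the Log2FC was -3.51 (SE 0.17, limma adjusted p = 8.5e-27). SBPase (Bradi2g55150), of the stage that regenerates the CO2 acceptor, had 45.5, 39.6 and 54.6 CPM in the S libraries, against 605, 591 and 410.2 CPM in the LL libraries, a Log2FC of -3.49, and GAPA-2 (Bradi5g12330) had -3.76. The carbonic anhydrase CA2 (Bradi2g44856), among the genes with the largest loss in CPM, had 157, 122 and 223 CPM in the S libraries, against 3418, 3110.3 and 2258 CPM in the LL libraries, a Log2FC of -4.14. The 1 risen member, named after its values were seen, was Bradi2g01350 (1.53), and 0 genes of the list rose without LL replicate 2, S replicate 1 or S replicate 3.

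Photorespiration recovers the carbon of 2-phosphoglycolate through peroxisomes and mitochondria. Of 17 genes, 13 fell, 0 rose, and the median Log2FC was -2.19. PGLP1 (Bradi5g14210), the phosphatase of its first step, had 11, 15.2 and 19.2 CPM in the S libraries, against 393, 396 and 348 CPM in the LL libraries. LL values were close to each other, and the Log2FC was -4.59 (SE 0.14, limma adjusted p = 1.2e-38). In the glycine cleavage complex of mitochondria, the P-protein GLDP2 (Bradi2g48010) had 248, 274 and 259 CPM in the S libraries, against 3434, 3485 and 3481 CPM in the LL libraries. The 3 values of each group hardly differed, and the Log2FC was -3.73 (SE 0.14, limma adjusted p = 7.6e-33). The T-protein (Bradi5g22290) had 14.9, 13.8 and 25.7 CPM in the S libraries, against 389, 363 and 244 CPM in the LL libraries, a Log2FC of -4.15, and an H-protein match (Bradi3g30500) -3.51. The L-protein mtLPD1 (Bradi2g12310), which other enzyme complexes share, had 166, 176 and 161 CPM in the S libraries, against 279, 284 and 303 CPM in the LL libraries. It was not called, with a Log2FC of -0.78.

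Of 26 genes of chlorophyll synthesis, 11 fell and 1 rose, with a median of -1.46, and 8 fell without S replicate 2. CHLI2 (Bradi1g49770), a subunit of the magnesium chelatase, had 19.0, 19.1 and 28.1 CPM in the S libraries, against 214, 195 and 142 CPM in the LL libraries, a Log2FC of -3.01 (SE 0.25, limma adjusted p = 1.1e-16). Its activator GUN4 (Bradi4g20500) had 14.6, 16.5 and 16.6 CPM in the S libraries, against 109, 102 and 78.4 CPM in the LL libraries, a Log2FC of -2.52. FLU (Bradi4g27210), which holds the pathway back in the dark, also fell, with 5.52, 12.3 and 8.76 CPM in the S libraries, against 54.8, 57.9 and 57.1 CPM in the LL libraries and a Log2FC of -2.6. The risen member, named after its values were seen, was a HEMA1 match (Bradi3g11060, 2.07), while the other HEMA1 gene (Bradi3g30160), for the first committed enzyme, had -0.95. In chlorophyll breakdown, NYC1 (Bradi2g07550) and NOL (Bradi1g13420), which begin the breakdown of chlorophyll b, fell, with -2.35 and -2.24. The gene of PAO (Bradi1g75270), which opens the chlorophyll ring, had 423, 351 and 357 CPM in the S libraries, against 159, 185 and 175 CPM in the LL libraries. It was not called, at 1.12. SAG12 (Bradi1g08357), a protease of senescent leaves, fell, with 4.62, 3.20 and 4.10 CPM in the S libraries, against 77.9, 82.7 and 35.3 CPM in the LL libraries and a Log2FC of -3.65.

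**Figure D4:**
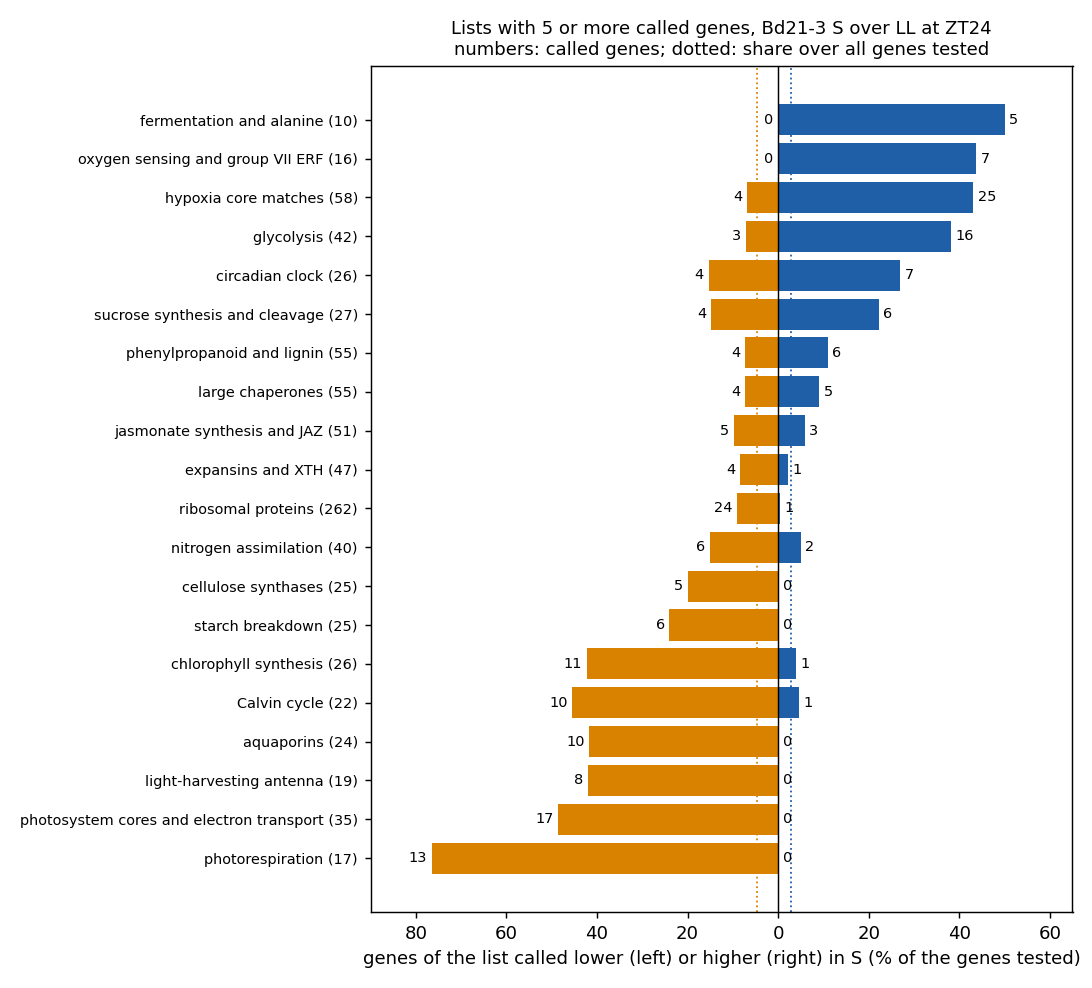
For each gene list with 5 or more DEGs, bars give the share of its tested genes (number in brackets) called lower in S (orange, left) or higher in S (blue, right), in percent; the numbers beside the bars are DEGs and the dotted lines are the shares over all genes tested, 2.84% risen and 4.71% fallen. Fermentation, oxygen sensing, hypoxia core and glycolysis lists lie on the right, and photorespiration, photosynthesis, aquaporin and chlorophyll lists on the left.

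Among ribosomal proteins, most called genes were matches of the plastid ribosome. A list of 262 ribosomal protein matches, drawn up for the cytosolic ribosome, had 24 fallen genes and 1 risen gene. Genes described as chloroplast, plastid or mitochondrial had been left out of it. After these values were seen, its remaining matches to proteins of the Arabidopsis plastid ribosome were separated. They are a part of the plastid ribosomal proteins, and a split made in this way is no test of compartments. All 23 of them fell, with Log2FC of -3.44 to -1.63 and a median of -2.47, while the other 239 had 1 risen and 1 fallen gene and a median of 0.28. RPL4 (Bradi1g67170), of the large plastid subunit, had 5.77, 5.07 and 11.2 CPM in the S libraries, against 113, 99.5 and 55.2 CPM in the LL libraries, a Log2FC of -3.44 (SE 0.34, limma adjusted p = 2.0e-13). RPL15 (Bradi1g69650) had 8.72, 9.59 and 12.9 CPM in the S libraries, against 120.4, 97.2 and 69.3 CPM in the LL libraries, a Log2FC of -3.07. For a protein of the cytosolic ribosome, RPS6B (Bradi1g60730), the values were 371, 353 and 387 CPM in S, against 269, 301 and 334 CPM in LL. They did not overlap, and the Log2FC was 0.30, under the limit. The plastid chaperonin CPN60A (Bradi5g02890), which folds Rubisco, fell as well, with 45.0, 51.7 and 52.8 CPM in the S libraries, against 405, 387 and 394 CPM in the LL libraries and a Log2FC of -2.97 (SE 0.15, limma adjusted p = 1.4e-26). Without S replicate 2 and LL replicate 3, 23 genes of the whole list fell. The 1 risen gene (Bradi1g60237, 1.53) was not called without LL replicate 2 or S replicate 1.

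Some starch genes fell in synthesis and in breakdown, and most were not called. Of 25 genes of breakdown, 6 fell and 0 rose, with a median Log2FC of -0.58 and 10 genes above 0. Of 21 genes of synthesis, 4 fell and 0 rose, with a median of -0.60 and 5 genes above 0. BAM3 (Bradi3g33730), the main beta-amylase of leaves at night in Arabidopsis, had 27.8, 14.9 and 42.7 CPM in the S libraries, against 687, 649 and 293 CPM in the LL libraries. LL replicate 3 was the lowest in LL and still several times above S, and the Log2FC was -4.23 (SE 0.58, limma adjusted p = 5.8e-09). The alpha-amylase AMY3 (Bradi2g48150) had 23.2, 30.4 and 19.8 CPM in the S libraries, against 159, 161 and 193 CPM in the LL libraries, a Log2FC of -2.77, and DPE2 (Bradi1g18650), which uses the exported maltose, had -2.04. The starting step, the glucan water dikinase SEX1 (Bradi1g41907), had 204, 219 and 155 CPM in the S libraries, against 136, 136 and 141 CPM in the LL libraries. It was not called, at 0.47. On the side of synthesis, the ADP-glucose pyrophosphorylase APS1 (Bradi3g22330) had 56.3, 79.1 and 55.7 CPM in the S libraries, against 199, 218 and 221 CPM in the LL libraries, a Log2FC of -1.74 (SE 0.14, limma adjusted p = 1.3e-16). The number of fallen synthesis genes was 7 without S replicate 2 and 1 with 5 CPM added in place of 1.

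Of 40 genes of nitrogen assimilation, 2 rose and 6 fell, and 1 rose without S replicate 3. ASN1 (Bradi4g45010), an asparagine synthetase that Arabidopsis induces in the dark and when sugar is short, had 456, 289.8 and 508 CPM in the S libraries, against 4452, 5078 and 5681 CPM in the LL libraries. NG libraries had 149, 258 and 153 CPM, so LL stood above both S and NG. The Log2FC over LL was -3.63 (SE 0.34, limma adjusted p = 2.4e-14), and that over NG was 1.17 and not called. GS2 (Bradi5g24550), the plastid glutamine synthetase that takes back the ammonium of photorespiration, had 176, 184 and 189 CPM in the S libraries, against 1796, 1806 and 1683 CPM in the LL libraries. The groups were far apart with little spread, and the Log2FC was -3.26 (SE 0.12, limma adjusted p = 1.5e-33). The cytosolic enzyme GSR2 (Bradi3g59970) had 337, 229.8 and 358 CPM in the S libraries, against 414, 367 and 346 CPM in the LL libraries. These values overlapped, with a Log2FC of -0.31. LBD38 (Bradi1g14780), a repressor of nitrate response genes, had 0.257, 1.10 and 1.49 CPM in the S libraries, against 135, 102 and 24.6 CPM in the LL libraries. LL values ran over a wide range, S was near the worth of a few reads, and the Log2FC was -5.25 (SE 0.49, limma adjusted p = 1.0e-14). Glutamate decarboxylase, which makes GABA, had matches in both directions, with 2.20 for GAD1 (Bradi1g10480) and -2.87 for GAD2 (Bradi5g11640). A list of 17 genes known to rise when carbon runs out had 2 risen and 2 fallen genes over LL, and 9 risen and 1 fallen gene over NG, comparisons that share the S libraries. Its fallen genes over LL were ASN1 and BT2 (Bradi2g58152), with 1.92, 0.992 and 3.54 CPM in S, against 139, 90.8 and 32.5 CPM in LL, while 0 genes rose without S replicate 2 and 1 rose without S replicate 1 or without any 1 of the LL libraries.

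Aquaporins, the water channels of the plasma membrane and the tonoplast, fell in 10 of 24 genes and rose in 0, with a median Log2FC of -2.09. Without S replicate 2 the number of fallen genes was 5. TIP2;3 (Bradi3g50690), a tonoplast channel, had 1.54, 0.551 and 1.68 CPM in the S libraries, against 204, 209 and 111 CPM in the LL libraries. NG libraries had 1.98, 4.55 and 3.35 CPM, so this gene was high in LL alone. The Log2FC over LL was -6.27 (SE 0.44, limma adjusted p = 9.6e-20), and over NG it was -0.92 and not called. Of the plasma membrane channels, PIP2B (Bradi3g49360) had 4.10, 2.65 and 5.78 CPM in the S libraries, against 38.9, 31.6 and 22.7 CPM in the LL libraries, a Log2FC of -2.64. The boron channel NIP5;1 (Bradi1g45200) had 5.77, 3.42 and 7.27 CPM in the S libraries, against 55.0, 43.0 and 25.8 CPM in the LL libraries, with a Log2FC of -2.69.

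Among cell wall genes, synthases of the secondary wall fell. Of 25 cellulose synthases and relatives, 5 fell and 0 rose. CESA8 (Bradi2g49912), which makes secondary wall cellulose, had 83.6, 88.5 and 75.7 CPM in the S libraries, against 468, 448 and 483 CPM in the LL libraries. Its 3 values were close in each group, and the Log2FC was -2.48 (SE 0.14, limma adjusted p = 2.3e-24). Its partners CESA4 (Bradi3g28350) and CESA7 (Bradi4g30540) had -2.82 and -3.10. Of the primary wall synthases, 2 were not called, with -0.28 for CESA1 (Bradi2g34240) and -0.72 for CESA6 (Bradi1g02510). XCP1 (Bradi2g39320), a protease of dying xylem cells, had 10.5, 4.52 and 12.9 CPM in the S libraries, against 158, 125 and 103 CPM in the LL libraries, a Log2FC of -3.74. XCP1 and CESA7 were also the fallen ones of the 6 xylem and phloem markers, whose sums are given above, and their part in the results on wall genes was not tested. The other 4 markers were not called, and the median Log2FC of the 6 was -0.75. CSLD2 (Bradi3g16307) had 28.7, 22.6 and 57.6 CPM in the S libraries, against 498, 427 and 335 CPM in the LL libraries, with -3.59. Of 47 expansins and xyloglucan enzymes, 4 fell and 1 rose, and the number fallen was 2 without LL replicate 1 or without S replicate 2, against 4.71% fallen over all genes tested, so that this count stood near the background. The median Log2FC of the 47 genes was -1.01, against 0.00 over all genes tested, and 9 lay above 0. XTH9 (Bradi5g22907) had 1.67, 1.10 and 3.54 CPM in the S libraries, against 71.4, 58.5 and 29.8 CPM in the LL libraries, a Log2FC of -4.12. The 1 risen gene was EXLB1 (Bradi1g26990), with 46.4, 42.2 and 44.7 CPM in S, against 2.50, 3.09 and 3.52 CPM in LL and a Log2FC of 3.50 (SE 0.33, limma adjusted p = 1.6e-14).

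The deepest fall with a gene symbol was that of the germin GER1 (Bradi3g37680), a secreted wall protein, with 4.36, 4.30 and 11.2 CPM in the S libraries, against 745, 691 and 328 CPM in the LL libraries. LL replicate 3 was the lowest LL value, and the Log2FC was -6.30 (SE 0.47, limma adjusted p = 1.2e-18). GER3 (Bradi3g37670) had 5.39, 1.87 and 15.3 CPM in the S libraries, against 342, 260.2 and 109 CPM in the LL libraries, a Log2FC of -5.00. PRP4 (Bradi5g04630), a proline-rich wall protein, had 2.69, 0.661 and 10.1 CPM in the S libraries, against 337, 251 and 109.6 CPM in the LL libraries. Both groups varied widely, without overlap, and the Log2FC was -5.69 (SE 0.48, limma adjusted p = 1.8e-16). Among genes without a symbol, Bradi3g15040 had -5.91, the pectin lyase-like Bradi2g18030 had -5.76 and Bradi5g23770, of a family of lipid transfer proteins, had -5.38. PDF1 (Bradi1g38120), which marks the epidermis in Arabidopsis, had 2.44, 0.882 and 6.15 CPM in the S libraries, against 108, 107 and 71.9 CPM in the LL libraries, a Log2FC of -4.73. The median Log2FC of 54 cell cycle genes was -0.31. Of these, 2 fell and 0 rose, against 4.71% fallen over all genes tested, so that this count stood near the background. The 2 were the mitotic cyclins CYCB1;2 (Bradi2g52760) and CYCB2;4 (Bradi5g18397). CYCB1;2 had 1.41, 0.772 and 2.80 CPM in the S libraries, against 18.5, 18.9 and 15.3 CPM in the LL libraries, a Log2FC of -2.87. CYCB2;4 had 1.03, 0.772 and 1.49 CPM in the S libraries, against 17.5, 15.4 and 12.6 CPM in the LL libraries, a Log2FC of -2.95 whose call was lost without LL replicate 1 (-2.85).

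Hormone genes gave at most 5 calls per list and direction. Over all genes tested, 2.84% rose and 4.71% fell. The shares were above these in the ethylene and jasmonate lists and below them in the gibberellin and abscisic acid lists. In the ethylene list, 2 of 27 rose and 2 fell. ACO1 (Bradi2g41840), which makes ethylene in its last step and needs oxygen to do so, had 81.3, 40.8 and 75.7 CPM in the S libraries, against 0.595, 0.375 and 0.391 CPM in the LL libraries. It was near 0 in LL, and the Log2FC was 5.47 (SE 0.48, limma adjusted p = 1.3e-15). The receptor ETR1 (Bradi2g35080) had 16.5, 15.9 and 10.1 CPM in the S libraries, against 56.9, 67.2 and 73.7 CPM in the LL libraries, a Log2FC of -2.16 (SE 0.16, limma adjusted p = 4.5e-19). The other risen gene, EBF1 (Bradi1g36530), had 1.58 and lost its call without S replicate 3 (1.48), and the other fallen gene, ACO4 (Bradi3g57620), had -2.29 and lost it without LL replicate 1 (-2.12), LL replicate 2 (-2.17) or S replicate 2 (-2.23). Lipoxygenases, the entry to jasmonate and other oxylipins, went both ways. LOX1 (Bradi1g11670) had 962, 662 and 963 CPM in the S libraries, against 122, 116 and 115 CPM in the LL libraries, a Log2FC of 2.84 (SE 0.20, limma adjusted p = 1.3e-19). A LOX2 match (Bradi3g39980) rose, with 99.9, 60.2 and 118 CPM in S, against 3.21, 2.81 and 2.50 CPM in LL and a Log2FC of 4.56, and other LOX2 matches, Bradi3g07010 and Bradi3g07000, fell, with -4.79 and -4.26. In all, 3 of 51 genes of jasmonate synthesis and JAZ repressors rose and 5 fell, and 3 fell without LL replicate 1 or without S replicate 2. Of 20 gibberellin genes 0 were called, and of 37 abscisic acid genes the kinase OST1 (Bradi1g14720) was called at -1.5, which did not hold without LL replicate 3 (-1.38) or S replicate 3 (-1.35).

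Chaperones and antioxidant enzymes were called one by one, beside 2.84% risen and 4.71% fallen over all genes tested. The median Log2FC was 0.34 for large chaperones, 0.08 for small heat shock proteins and -0.18 for antioxidant genes. Of 55 large chaperones, 5 rose and 4 fell, the fallen ones being CPN60A (Bradi5g02890) and, named after their values were seen, 2 of the 3 CPN21 matches (Bradi1g46596, -1.54, and Bradi3g60027, -1.72) and Bradi5g11240 (-1.59). HSP90.1 (Bradi5g02037), which holds regulators of signaling in shape, had 129, 58.9 and 113 CPM in the S libraries, against 0.595, 0.656 and 1.02 CPM in the LL libraries. LL was close to 1 CPM, and the Log2FC was 5.78 (SE 0.47, limma adjusted p = 5.2e-17). An HSP70 match (Bradi2g54570) had 86.8, 44.3 and 102 CPM in the S libraries, against 1.43, 1.69 and 0.782 CPM in the LL libraries. In the NG libraries it had 21.7, 14.5 and 22.6 CPM. Its Log2FC over LL was 5.03, and over NG it was 1.87 and not called. The HSC70-1 match Bradi1g66470 had a Log2FC of 4.28, while the abundant HSC70-1 gene Bradi1g03720 had 0.29 and was not called. Of 38 small heat shock proteins, 3 rose and 1 fell, a fall (Bradi2g02350, -3.54) whose call was lost when any library other than LL replicate 3 was left out. Bradi1g67040 had 25.4, 14.3 and 22.7 CPM in the S libraries, against 0.119, 0.844 and 0.547 CPM in the LL libraries, a Log2FC of 3.85. The heat shock factor HSFA6B (Bradi3g26920) had 86.3, 78.9 and 79.2 CPM in the S libraries, against 13.6, 19.3 and 20.7 CPM in the LL libraries, with a Log2FC of 2.15 (SE 0.26, limma adjusted p = 1.1e-10) over LL and 1.41, not called, over NG, and HSFC1 (Bradi1g38140) had -3.69. Of 31 antioxidant genes 4 fell and 0 rose. The thylakoid peroxidase TAPX (Bradi3g45700) had 20.3, 27.0 and 25 CPM in the S libraries, against 233, 247 and 242 CPM in the LL libraries, a Log2FC of -3.28 (SE 0.15, limma adjusted p = 6.0e-29). The plastid peroxiredoxins 2CPB (Bradi5g09650) and PRXQ (Bradi1g46622) had -3.14 and -3.02. A CAT2 match (Bradi1g76330) had -2.0, and another CAT2 match (Bradi1g29800) 0.69, not called.

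At the first dawn, ZT0, the same comparison had 1023 risen genes, 4.24% of those tested, and 1041 fallen genes, 4.32%. Of the DEGs of ZT24, 329 risen genes (48.0% of this list and 32.2% of the ZT0 list) and 400 fallen genes (35.2% and 38.4%) were also called at ZT0 in the same direction, while 1 and 2 genes were called in the opposite direction. At ZT20, in the middle of the night before this dawn, 791 genes rose (3.28%) and 1335 fell (5.54%), and 604 risen and 987 fallen DEGs of ZT24 were called there in the same direction. The S and LL libraries of both dawns are separate, and the difference of the Log2FC, ZT24 minus ZT0, was tested itself. It was higher at ZT24 in 510 genes (2.12%) and lower in 702 genes (2.91%). Of the genes with a higher difference, 156 had risen at ZT24 and were not called at ZT0, and 150 had fallen at ZT0 and were not called at ZT24, while 187 were called at neither dawn. Of those with a lower difference, 284 had risen at ZT0 and were not called at ZT24, 257 had fallen at ZT24 and were not called at ZT0, and 117 were called at neither dawn.

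Genes with a late rise included ENO2 (Bradi1g51540). At ZT24 it averaged 1251 ± 107 CPM in S and 116 ± 11 CPM in LL, and at ZT0 89.8 ± 6.83 CPM in S and 70.0 ± 21.2 CPM in LL (SD, n = 3 each). The Log2FC was 3.42 at the second and 0.40 at the first dawn, a difference of 3.03 (SE 0.50, limma adjusted p = 1.1e-06). GONST3 (Bradi1g69910), a nucleotide sugar transporter, averaged 89.2 ± 6.53 CPM in S and 5.52 ± 1.07 CPM in LL at ZT24, and 2.80 ± 0.346 CPM in S and 8.19 ± 2.46 CPM in LL at ZT0. S lay above LL at the second dawn and below it at the first, a difference of 5.05 (SE 0.32, limma adjusted p = 2.1e-20). LHY (Bradi3g16515) was less reduced at the second dawn. It averaged 238 ± 15.6 CPM in S and 1987 ± 36.4 CPM in LL at ZT24, and 82.1 ± 20.1 CPM in S and 3056 ± 397 CPM in LL at ZT0, a difference of 2.16 (SE 0.27, limma adjusted p = 1.2e-09). In the light-harvesting antenna, 4 genes had a higher Log2FC at ZT24 and 0 a lower one, and the list had 8 fallen genes with a median of -1.64 at ZT24, against 16 with -3.33 at ZT0. LL replicate 3 of ZT24 was low in these genes, and without it the median at ZT24 was -2.06 and 3 genes had a higher Log2FC, with 2 when S replicate 2 was left out as well.

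Photorespiration genes moved the other way. The list had 13 fallen genes and a median of -2.19 at ZT24, against 5 and -0.85 at ZT0, and the difference was lower in 5 of 17 genes and higher in 0. GS2 (Bradi5g24550) averaged 183 ± 6.70 CPM in S and 1762 ± 68.1 CPM in LL at ZT24, and 1982 ± 138 CPM in S and 2288 ± 206 CPM in LL at ZT0. The gene fell at the second dawn and was not called at the first, with a difference of -3.05 (SE 0.17, limma adjusted p = 5.1e-23). Bradi1g16490, the PRR7 or PRR3 gene, averaged 8.6 ± 1.73 CPM in S and 8.09 ± 1.08 CPM in LL at ZT24, and 41.1 ± 14.3 CPM in S and 1.48 ± 0.700 CPM in LL at ZT0. Its rise was seen at the first dawn, and the difference was -4.01 (SE 0.28, limma adjusted p = 9.2e-19). GA2OX1 (Bradi2g19900), which inactivates gibberellin, averaged 0.901 ± 0.846 CPM in S and 0.557 ± 0.398 CPM in LL at ZT24, and 143 ± 53.7 CPM in S and 0.589 ± 0.182 CPM in LL at ZT0. At ZT24 it was at the level of a few reads in both groups, and the difference was -6.23 (SE 0.72, limma adjusted p = 9.6e-11).

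**Figure D5:**
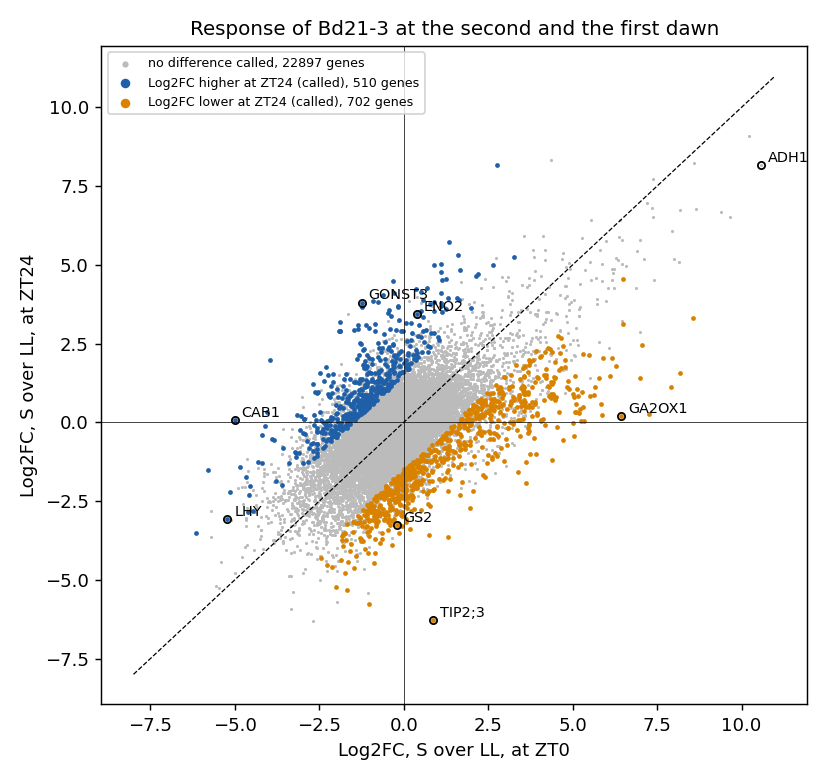
Each point is 1 of the 24109 genes tested in Bd21-3, with its Log2FC, S over LL, at ZT0 on the horizontal and at ZT24 on the vertical axis; blue points are the 510 genes with a higher and orange points the 702 genes with a lower Log2FC at ZT24, and the dashed line marks equal values. ENO2 and GONST3 lie above the line, and GS2, TIP2;3 and GA2OX1 below it.

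In Bd21 at ZT24, with 3 S and 2 LL libraries, 626 genes rose (2.6%) and 1003 fell (4.16%). Of the Bd21-3 DEGs, 471 risen genes (68.8% of this list and 75.2% of that of Bd21) and 789 fallen genes (69.5% and 78.7%) were called there in the same direction and 0 in the opposite. A gene called in 1 ecotype alone is not shown to differ, so the difference of the Log2FC, Bd21-3 minus Bd21, was tested itself. It was higher in 10 genes (0.0415%) and lower in 2 (0.0083%) by the limits used here, while 3220 genes had an unadjusted p under 0.05 and 576 an adjusted p under 0.05. A fit of only the libraries compared called 0 genes higher and 0 lower, and a replicate block left 6 and 1. Without LL replicate 1 or 2 of Bd21, which leaves 1 LL library in that ecotype, 6 genes were higher and 0 lower, and 1 was lower without LL replicate 1, LL replicate 2 or S replicate 2 of Bd21-3 or S replicate 3 of Bd21. Reads of both ecotypes were aligned to the Bd21 genome, and the part that sequence differences have in these values was not tested.

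Of these 12 genes, 2 with neighbouring numbers rose more in Bd21-3. SK1 (Bradi5g23460), a shikimate kinase match of the route to aromatic amino acids, had 703, 664 and 579 CPM in the S libraries, against 23.5, 23.5 and 24.4 CPM in the LL libraries in Bd21-3. It averaged 135 ± 17.7 CPM in S (SD, n = 3) and 18.1 ± 4.89 CPM in LL (SD, n = 2) in Bd21. The gene rose in both ecotypes, and the difference was 1.85 (SE 0.21, limma adjusted p = 2.3e-09). Bradi5g23450, a kinase family protein, had 744, 671 and 583 CPM in the S libraries, against 43.1, 40.3 and 49.3 CPM in the LL libraries in Bd21-3, a difference of 2.07. CCR3 (Bradi4g10500), a receptor kinase match, had 251, 134 and 239 CPM in the S libraries, against 27.3, 27.0 and 23.4 CPM in the LL libraries in Bd21-3. It averaged 0.771 ± 0.720 CPM in S and 1.36 ± 0.117 CPM in LL in Bd21, which is near the level of a few reads, and the difference was 3.42 (SE 0.48, limma adjusted p = 1.3e-06). MHX (Bradi4g11030), an exchanger of magnesium and protons in the tonoplast, averaged 97.8 ± 11.3 CPM in S and 63.5 ± 12.6 CPM in LL in Bd21-3 (SD, n = 3 each), where it was not called. In Bd21 the Log2FC was -1.80, and the difference was 2.43 (SE 0.27, limma adjusted p = 2.3e-09). CER1 (Bradi3g28450), of cuticular wax synthesis, had a lower Log2FC in Bd21-3, with a difference of -1.77 (SE 0.26, limma adjusted p = 2.4e-06). It had 18.3, 12.3 and 17.9 CPM in the S libraries, against 49.4, 43.5 and 35.3 CPM in the LL libraries in Bd21-3. In Bd21 it averaged 31.9 CPM in S and 23.5 CPM in LL. The Log2FC was -1.35 in Bd21-3 and 0.42 in Bd21, and CER1 was called in neither. Of the rest, Bradi1g50670 and Bradi1g50760 had means under 1 CPM in S and LL of Bd21-3, so that their differences rest on Bd21. An inhibitor of the mitochondrial ATPase (IF1, Bradi3g44950), which stops the enzyme from using up ATP, had 213, 171 and 227 CPM in the S libraries, against 26.9, 22.7 and 16.9 CPM in the LL libraries in Bd21-3, a Log2FC of 3.16. In Bd21 it averaged 45.1 ± 21.9 CPM in S and 50.1 ± 1.94 CPM in LL, and the difference of 3.43 (SE 0.61, limma adjusted p = 1.6e-04) was not past the limit.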

How the data were processed

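Read counts per gene, scaled to an effective library size (CPM), were deposited by the authors as the signal values of 1 table for all 89 libraries, made with HISAT2 2.1.0 on Bdistachyon_314_v3.0, SAMtools 1.12, HTSeq and edgeR. Library sums therefore differ, so the values were treated as scaled signal and not as plain CPM. When divided by the worth of 1 read, 100% of the values were within 0.001 of a whole number of reads. The deposited log2 fold changes and p-values of the authors' own comparisons were not used, and 0 columns of per-sample values were left unused. Groups were taken from the sample labels.

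The limma-trend test (limma 3.58.1, R 4.3.3) was run on log2(CPM + 1) over all 30 groups, each a term of its own, for genes that reached 1 CPM in 3 or more libraries, with Benjamini-Hochberg adjustment over all genes tested. The limits for a DEG follow the methods of the study. Tables were made in Python 3.11.15 with pandas 2.3.3 and numpy 2.4.6. The code was tested on simulated data. Precision is given by SE and SD.

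Gene symbols are those of the best Arabidopsis match in the table, given for 8483 genes, and genes that share a symbol or sequence can share reads. Named genes were the 12 risen and 12 fallen DEGs with a symbol with the largest Log2FC, the 3 of each without one, the 10 with the largest difference in mean CPM in each direction, up to 5 called and 2 uncalled members of each list, all clock genes, 8 per direction of each difference and genes that the study names. Not every gene that this rule allows is printed. Genes outside the rule are marked where they stand. Members and lists were chosen with earlier results of these data known. Alternatives were the pseudocount, the filter, scaling, the trend of the variance, a replicate block, libraries left out, edgeR 4.0.16 on the recovered reads, the limits, NG as control and a fit of only the libraries compared.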

Additional observations from a re-analysis of the deposited data

Results flagged for a closer look

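The genes below were marked because their response to submergence differed by a test of the difference itself. Between the dawns in Bd21-3, the Log2FC at ZT24 minus that at ZT0 was 5.08 (SE 0.58, limma adjusted p = 6.8e-11) for CAB1 (Bradi1g12130), 5.06 (SE 0.72, limma adjusted p = 4.2e-08) for KCS12 (Bradi1g61010), 5.05 (SE 0.32, limma adjusted p = 2.1e-20) for GONST3 (Bradi1g69910) and 4.79 (SE 0.70, limma adjusted p = 7.9e-08) for SERK1 (Bradi4g18280). CAB1 averaged 2.16 ± 0.359 CPM in S and 2.06 ± 0.839 CPM in LL at ZT24, and 1.03 ± 1.05 CPM in S and 60.2 ± 17.6 CPM in LL at ZT0 (SD, n = 3 each), so that LL itself was low at the second dawn. The rise of KCS12 at ZT24 was not called without LL replicate 3 (2.85), S replicate 1 (3.02) or S replicate 3 (3.07), and that of SERK1 lost its call whichever of the 6 libraries was left out, and by edgeR.

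The difference was -7.13 (SE 0.62, limma adjusted p = 7.3e-15) for TIP2;3 (Bradi3g50690), -6.77 (SE 1.03, limma adjusted p = 1.7e-07) for PAP85 (Bradi1g13040), -6.23 (SE 0.72, limma adjusted p = 9.6e-11) for GA2OX1 (Bradi2g19900) and -5.61 (SE 0.96, limma adjusted p = 2.5e-06) for ADF3 (Bradi1g03760). PAP85, a match of seed storage proteins, had 398, 90.2 and 537 CPM in the S libraries, against 125, 156 and 92.1 CPM in the LL libraries at ZT24, with an overlap of S replicate 2 with LL, and averaged 409 ± 198 CPM in S and 0.600 ± 0.0723 CPM in LL at ZT0. ADF3, an actin depolymerizing factor, averaged 8.65 ± 4.69 CPM in S and 22.9 ± 13.9 CPM in LL at ZT24, and 367 ± 124 CPM in S and 16.1 ± 3.35 CPM in LL at ZT0.

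Between the ecotypes at ZT24, the Log2FC in Bd21-3 minus that in Bd21 was 3.42 for CCR3 (Bradi4g10500), 2.43 for MHX (Bradi4g11030), 2.02 for RPM1 (Bradi1g01380), 1.85 for SK1 (Bradi5g23460) and -1.77 for CER1 (Bradi3g28450). RPM1, a match of disease resistance proteins, averaged 39.7 ± 8.18 CPM in S and 25.6 ± 3.03 CPM in LL in Bd21-3 (SD, n = 3 each), and 12.5 ± 3.50 CPM in S and 34.2 ± 2.28 CPM in LL in Bd21 (SD, n = 3 and n = 2).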

How the results depend on the processing

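In the comparison of S with LL, 685 risen and 1136 fallen genes became 1238 and 1938 with NG as the control, 286 and 242 in a fit of only the libraries compared, 1251 risen at a Log2FC of at least 1, and 1784 fallen with no limit on the mean CPM. The quasi-likelihood test of edgeR on the recovered reads called 700 and 1163. Leaving out 1 library gave 615 to 660 risen and 1012 to 1156 fallen genes. Of the differences between the dawns, 510 higher and 702 lower genes became 776 and 1145 at an adjusted p under 0.05 and 204 and 350 with only the libraries compared, 826 were higher at a log2 difference of at least 1, and leaving out 1 library gave 449 to 524 and 598 to 677. Of the differences between ecotypes, 10 higher and 2 lower genes became 16 and 25 with NG, 55 and 33 at an adjusted p under 0.05 and 0 and 0 with only the libraries compared. Lower ones were 8 with no limit on the mean CPM, 7 with 5 CPM added, 0 after quantile normalization and 0 without both S replicate 2 and LL replicate 3, an alternative chosen after seeing the data. Leaving out 1 library gave 6 to 13 higher and 0 to 3 lower genes. With NG as the control, the Log2FC changed sign, with a call over LL or NG, for CAB1 (Bradi1g12130) to -2.41, for Bradi2g56037 to 2.54, for CAT1 (Bradi3g01470) to 2.08, for a TPS8 match (Bradi3g53790) to 1.54, for MCCA (Bradi4g02380) to 2.73 and for ASN1 (Bradi4g45010) to 1.17. Causes were not tested beyond what each setting does. Same-numbered S and LL libraries at ZT24 had correlations of 0.086, -0.254 and -0.481, so the numbers were not taken as pairs, and a replicate block left 6 higher and 1 lower gene between ecotypes, ended 3 of 173 calls of named genes and changed no other count by over 1.5 times. A filter at 15 CPM moved the median Log2FC of all genes to 0.117. Of the values of named genes under all alternatives, 4766 stayed on their side of the limits, 75 of them with a change of sign between uncalled values, 220 lost the call, 38 gained it and the 6 above changed sign with a call.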

Other observations

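Transcripts matched to genes of the plastid and mitochondrial genomes were not called in either direction, and 57 of 58 had a Log2FC above 0. Their median was 0.59, against 0.00 over all genes tested. It was 0.21 without both S replicate 2 and LL replicate 3, -0.05 in Bd21 at ZT24 and -0.52 in Bd21-3 at ZT20. Within groups these transcripts spread widely, with overlapping sums of 318 to 1796 CPM in S and 192 to 784 CPM in LL. A psbA match (Bradi4g19720), for a core protein of photosystem II, had 77.9, 461 and 887 CPM in the S libraries, against 140.4, 357 and 29.5 CPM in the LL libraries, and these values overlapped. Of 41 histone matches, the 1 risen gene (Bradi4g31970) is described as a methyltransferase of histones and not as a histone. Of 13 guard cell markers 0 were called and 0 had a Log2FC above 0. Only 2 of them reached a mean of 15 CPM in LL and 0 in S, so most could not be called.

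Some genes were not called between S and LL and stood apart from NG at ZT24. CAT1 (Bradi3g01470), a catalase, had 1856, 1648 and 1969 CPM in S, 2235, 2173 and 1819 CPM in LL and 378, 471 and 451 CPM in NG. MCCA (Bradi4g02380), which breaks down leucine, had 841, 976 and 820.2 CPM in S, 826, 952 and 1173 CPM in LL and 124, 149.7 and 121 CPM in NG. In both genes all 6 libraries of S and LL lay above all 3 of NG. Bradi2g56037, described as a rhodanese family protein, had 248, 240.1 and 238 CPM in S, 341, 386 and 386 CPM in LL and 31.9, 50.8 and 41.8 CPM in NG, so that S lay below LL without overlap and above NG.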
